A study of Mus musculus with 29 samples.

Results

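The Ifitm genes encode small interferon-induced transmembrane proteins, and 4 of them, Ifitm1, Ifitm2, Ifitm3 and Ifitm6, are described here in sorted mouse B cell progenitors. The members were taken by gene name, 4 of the 24732 entries in the tables of wild-type and Pax5(-/-) cells and 4 of the 25588 entries in those of Meox2-cre cells. The family was chosen because the Ifitm1 value was far higher in the Pax5(-/-) than in the wild-type libraries. The difference of every member between these genotypes is therefore given as a description, with no test. RNA was sequenced from wild-type pro-B cells (n = 3), from Pax5(-/-) progenitors (n = 2) and from Pax5(+/+) Meox2-cre pro-B cells (n = 3). The 8 libraries belong to a series of 29 samples on the B cell identity factor Pax5 and a PAX5-JAK2 fusion of B cell leukaemia, of which the others were not analysed here. Each value is a TPM (a transcript abundance), which divides the reads of a gene by its length and scales every library to the same total.

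According to the study's methods, cells were sorted directly from the animals, both on B220 and Kit among other markers, which included Ly6D for the Pax5(-/-) progenitors alone. The gates thus differed between the genotypes, and the effect of the gate cannot be told apart from that of the genotype. The Pax5 mutation is carried by every cell of the animal. Meox2-cre is a Cre knocked into the Meox2 gene and active in nearly all tissues, and these animals were 3 weeks old and their bone marrow cells were pooled for sorting. For the wild-type and Pax5(-/-) animals the labels give no age. For the Meox2-cre animals, the labels give Pax5(+/+) whereas another listing of the study gives a heterozygous Pax5 genotype. Nothing states that replicate libraries of a group came from separate animals, so that their spread may in part be technical.

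IFITM proteins sit in the plasma membrane and in endosomes, where they hinder the fusion of enveloped viruses with the cell. IFITM3 acts mainly on endosomes, whereas IFITM1 is found more at the cell surface. Type I and type II interferons induce several members through the interferon-stimulated response element (ISRE), to which the factor ISGF3 binds, and through STAT sites. On B cells, human IFITM1 was first known as Leu-13, a partner of the tetraspanin CD81. IFITM3 also binds the phosphoinositide PIP3 in B cells. Mouse Ifitm6 is known from macrophages and granulocytes.

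The 4 genes lay within 62.1 kb of chromosome 7 in the mm9 genome build, at positions 148140736 to 148202791. Ifitm2 (148140736 to 148141882), Ifitm3 (148195485 to 148196669) and Ifitm6 (148201711 to 148202791) were annotated on the minus strand. Ifitm1 (148153120 to 148155724) was on the plus strand, and its start site was 11.2 kb from that of Ifitm2, 43.5 kb from that of Ifitm3 and 49.7 kb from that of Ifitm6. Ifitm1 had 3 annotated protein-coding transcripts, which shared 1 coding sequence, and each of the other members had 1. The translated proteins were 106 residues long for Ifitm1, 144 for Ifitm2, 137 for Ifitm3 and 104 for Ifitm6. In global alignments, Ifitm2 and Ifitm3 shared 73.5% of their aligned residues, Ifitm1 and Ifitm3 70.8%, and Ifitm1 and Ifitm2 67.9%. Ifitm6 was the most distant of the 4, with 52.9% to 56.7% identity to the others.

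The close likeness of the genes raises the question of whether short reads can be told apart, and windows of 50 bases, the shortest read length in the study's methods, were compared. Of all 50-base windows in the annotated transcripts, 5.02% of those of Ifitm1, 11.1% of those of Ifitm2 and 10.0% of those of Ifitm3 occurred also in a transcript of another gene. The partners were among Ifitm1, Ifitm2 and Ifitm3 themselves and the predicted genes Gm7676 and Gm5331. None of the 492 windows of Ifitm6 was shared. In the mm9 genome, 82.2% of the exonic windows of Ifitm1, 71.1% of those of Ifitm2, 89.8% of those of Ifitm3 and all 443 of those of Ifitm6 were found once. A part of the reads of Ifitm1, Ifitm2 and Ifitm3 could thus have been lost or assigned to a relative, and their levels are uncertain to that extent.

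The promoters of the 4 members are shown because the genes stand side by side and are known as interferon targets. Their levels also differed widely from one another, as did the size of their difference between the genotypes. The sequences come from RefSeq in build GRCm38.p6, all on chromosome 7, and run from 250 bases before to 30 bases after the start site, 5′ to 3′ on the strand of the gene. Capitals mark a match to the ISRE core (GAAANNGAAA) or the STAT core (TTCNNNGAA), searched on both strands over 300 bases from 250 before to 50 after the start site.
Ifitm1, chr7:140967826-140968105, plus strand: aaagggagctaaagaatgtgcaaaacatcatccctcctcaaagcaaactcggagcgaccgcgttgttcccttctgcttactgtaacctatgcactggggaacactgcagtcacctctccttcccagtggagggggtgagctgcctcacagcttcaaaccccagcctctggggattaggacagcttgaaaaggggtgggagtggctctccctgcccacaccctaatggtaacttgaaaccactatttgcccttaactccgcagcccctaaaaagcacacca
Ifitm2, chr7:140955932-140956211, minus strand: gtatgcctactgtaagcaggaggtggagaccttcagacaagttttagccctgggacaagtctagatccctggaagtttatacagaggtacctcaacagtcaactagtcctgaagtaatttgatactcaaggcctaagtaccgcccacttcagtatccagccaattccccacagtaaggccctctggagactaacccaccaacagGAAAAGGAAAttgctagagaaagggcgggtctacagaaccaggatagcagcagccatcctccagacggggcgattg
Ifitm3, chr7:141010715-141010994, minus strand: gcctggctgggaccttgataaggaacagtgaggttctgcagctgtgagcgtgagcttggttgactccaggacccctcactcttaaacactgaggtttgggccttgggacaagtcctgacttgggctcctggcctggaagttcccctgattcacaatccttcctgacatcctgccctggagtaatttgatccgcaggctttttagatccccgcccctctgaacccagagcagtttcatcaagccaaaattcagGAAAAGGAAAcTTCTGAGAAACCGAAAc
Ifitm6, chr7:141016863-141017142, minus strand: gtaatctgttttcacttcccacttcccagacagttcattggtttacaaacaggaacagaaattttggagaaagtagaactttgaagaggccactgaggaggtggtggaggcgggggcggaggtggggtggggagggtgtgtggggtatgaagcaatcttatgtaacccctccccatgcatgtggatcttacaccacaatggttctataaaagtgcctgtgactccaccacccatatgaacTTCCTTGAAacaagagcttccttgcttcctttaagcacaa
The Ifitm3 promoter held 2 ISRE cores, at positions 3 to 12 and 20 to 29 from the start site, and a STAT core at 14 to 22 that overlaps the second of them by 3 bases. The Ifitm2 promoter held 1 ISRE core, at -46 to -37, with the same 10 letters as the first of Ifitm3 (GAAAAGGAAA). The Ifitm6 promoter held a STAT core at -10 to -2 and no ISRE core, and the Ifitm1 promoter shown held neither motif. Only the start site shown was searched for each gene. Ifitm1 has 3 annotated transcripts in mm9, and its RefSeq start site need not be the start used for the distances above. Motifs at another start of Ifitm1 were thus not searched for. Of 32851 promoters of the same length in the table, 3.44% held an ISRE core and 8.30% a STAT core. These matches describe letters in the sequence, not binding.

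As a check of the labels, Pax5 was at 342, 386 and 391 TPM in the wild-type libraries and at 43.0 and 39.1 TPM in those of Pax5(-/-) cells. The gene-level value does not separate the deleted part of Pax5 from the rest. The summed level of 12 pro-B cell genes, among them Cd79a, Igll1 and Vpreb1, was 13595 to 16501 TPM in wild-type, 5062 and 4689 TPM in Pax5(-/-) and 16357 to 18095 TPM in Meox2-cre libraries. These genes did not all move alike. The mean of Cd79a was 4645 TPM in wild-type and 575 TPM in Pax5(-/-) libraries, while Dntt was at 1605 and 1547 TPM and Il7r at 115 and 156 TPM. The T cell markers Cd3e, Cd3d, Cd3g and Cd8a did not pass the filter of a mean above 1 TPM in a genotype. The read totals behind the TPM values are unknown. From the commonest ratio between values below 1 TPM, the relative depth was 1.02 and 1.03 for wild-type replicates 2 and 3 and 0.855 and 1.54 for Pax5(-/-) replicates 1 and 2, each against wild-type replicate 1. Wild-type replicate 1 had the lowest wild-type value for 10 of 10 myeloid markers and 26 of 29 interferon-induced genes, against 54.0% of the 12066 genes tested.

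Ifitm1 was at 2.41, 4.88 and 2.62 TPM in wild-type pro-B cells and at 179.8 and 180.1 TPM in Pax5(-/-) progenitors. The 2 Pax5(-/-) libraries were nearly equal, and both stood far above every wild-type library. The mean was 3.30 ± 1.37 TPM (SD, n = 3) in wild-type and 180.0 ± 0.20 TPM (SD, n = 2) in Pax5(-/-) cells, a ratio of means of 54.5. On the scale of log2(TPM + 0.5), on which all differences below are given, Ifitm1 was 5.63 higher. Counted from the highest difference it was at place 7 of the 12066 genes whose mean exceeded 1 TPM in either genotype. It moved from places 9394 to 10499 among the 24732 entries ordered by TPM in the wild-type libraries to places 1047 and 1030 in the Pax5(-/-) libraries.

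Ifitm2 was the most abundant member in every library. It was at 472, 559 and 389 TPM in wild-type and at 846 and 892 TPM in Pax5(-/-) libraries. Both Pax5(-/-) values lay above the wild-type range, and the wild-type libraries also differed among themselves. The means were 473 ± 85.3 TPM (SD, n = 3) and 869 ± 32.5 TPM (SD, n = 2), a ratio of 1.84 and a log2 difference of 0.89. Already in wild-type cells Ifitm2 was at places 262 to 432 of all entries.

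Ifitm3 was at 35.8, 67.1 and 55.7 TPM in wild-type and at 144 and 158 TPM in Pax5(-/-) libraries. The groups did not overlap, and wild-type replicate 1 was the lowest library. The means were 52.8 ± 15.9 TPM (SD, n = 3) and 151 ± 10.0 TPM (SD, n = 2), a ratio of 2.86 and a log2 difference of 1.55. Without wild-type replicate 1 the log2 difference was 1.30.

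Ifitm6 was listed at 0 in wild-type replicate 1 and was at 3.21 and 3.39 TPM in the other wild-type libraries. It was listed at 0 in 1 Pax5(-/-) library and was at 0.45 TPM in the other. The groups overlapped at 0. The mean was 2.20 ± 1.91 TPM (SD, n = 3) in wild-type and 0.23 ± 0.32 TPM (SD, n = 2) in Pax5(-/-) cells, and the log2 difference of -1.48 was within the range of the wild-type libraries on this scale. It passed the filter on low values through its wild-type mean, and the difference was -2.46 without wild-type replicate 1 and -0.98 without replicate 3.

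Both Pax5(-/-) values lay above every wild-type value for 3 of the 4 members, beside 26.1% of all genes tested. Since the family was selected on this contrast, nothing is read from that count. The members just above and below a difference of 1 on the log2 scale were Ifitm3 at 1.55 and Ifitm2 at 0.89. In the plot of the members by library, the Ifitm1 values of the Pax5(-/-) libraries are the ones farthest from their wild-type counterparts.

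**Figure D1:**
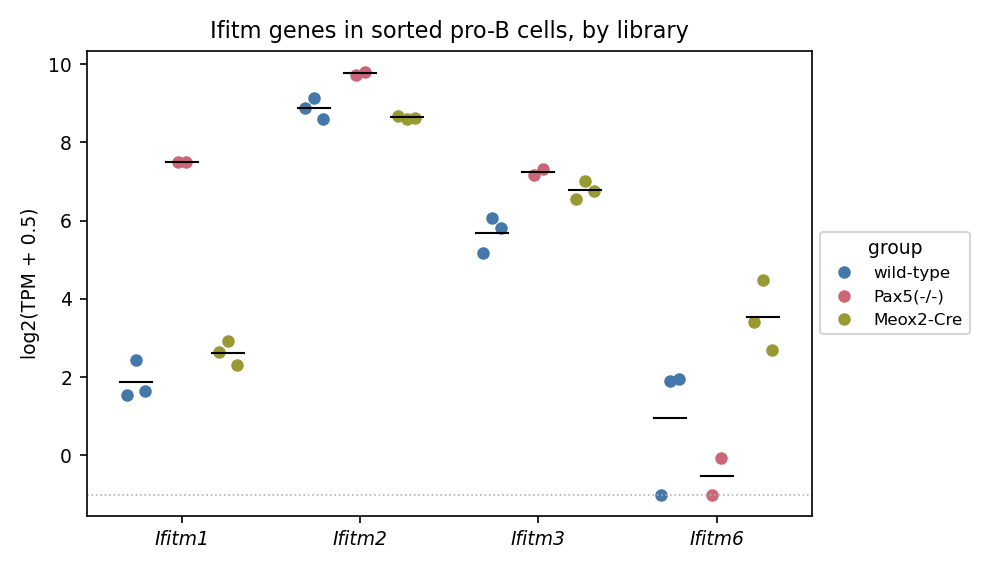
Level of each Ifitm gene as log2(TPM + 0.5), with 1 point per library, for wild-type (n = 3), Pax5(-/-) (n = 2) and Meox2-Cre (n = 3) pro-B cells. Black lines are group means and the dotted line is a TPM of 0. The Ifitm1 values of Pax5(-/-) cells, at 179.8 and 180.1 TPM, lie far above the wild-type values of 2.41 to 4.88 TPM, while the Ifitm6 values of both groups reach 0.

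TPM allows the members to be compared with one another per length. In wild-type cells the order of the mean levels was Ifitm2, Ifitm3, Ifitm1 and Ifitm6, and Ifitm1 and Ifitm6 overlapped in their values. In Pax5(-/-) cells the order was Ifitm2, Ifitm1, Ifitm3 and Ifitm6. Ifitm1 and Ifitm3 changed places, and their values of 179.8 and 180.1 against 144 and 158 TPM did not overlap. The sum of the 4 members was 510, 634 and 451 TPM in wild-type and 1170 and 1231 TPM in Pax5(-/-) libraries. Ifitm2 gave 89.0% ± 3.19 (SD, n = 3) of this sum in wild-type and 72.4% ± 0.11 (SD, n = 2) in Pax5(-/-) cells. The share of Ifitm1 was 0.61% ± 0.15 (SD, n = 3) in wild-type cells and 14.6% and 15.4% in the 2 Pax5(-/-) libraries, and that of Ifitm3 was 9.98% ± 2.72 (SD, n = 3) and 12.6% ± 0.38 (SD, n = 2). The share of Ifitm3 thus differed by less than the wild-type spread, although its level differed, whereas Ifitm1 became a sizeable part of the family.

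**Figure D2:**
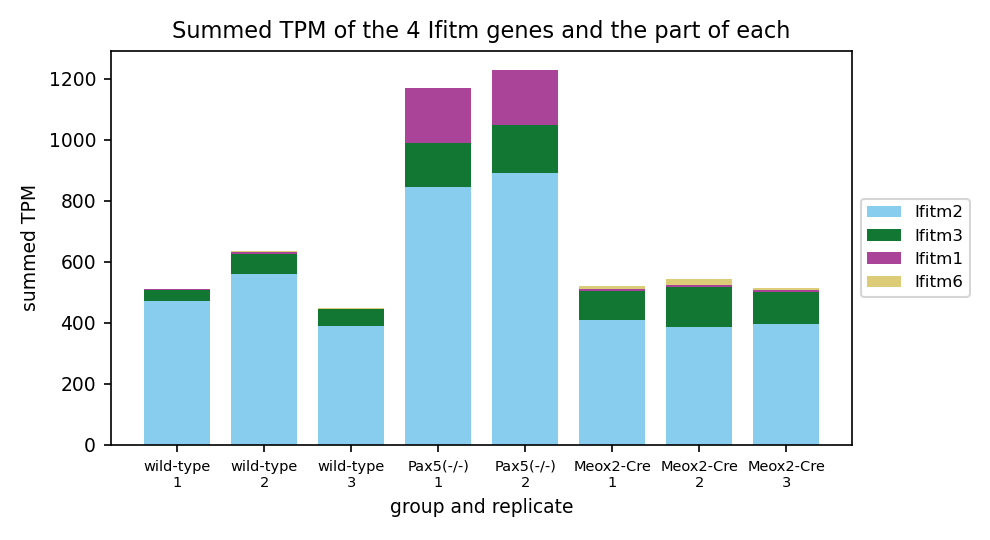
Summed TPM of the 4 Ifitm genes in each library, with the part of each gene stacked by colour and the libraries named by group and replicate. The sum is 451 to 634 TPM in wild-type and 1170 and 1231 TPM in Pax5(-/-) libraries, where Ifitm1 makes up 14.6% and 15.4% of it.

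The Meox2-Cre libraries were aligned as read pairs to another genome build and counted on another gene set, so that their values are set beside the others with no test. Ifitm1 was at 5.79, 7.08 and 4.42 TPM in Meox2-Cre pro-B cells (5.77 ± 1.33, SD, n = 3), near the wild-type values and far below those of Pax5(-/-) cells. Ifitm2 was at 410, 388 and 395 TPM (398 ± 11.6, SD, n = 3), at the lower end of the wild-type range. Ifitm3 was at 94.1, 128 and 108 TPM (110 ± 17.3, SD, n = 3), between the wild-type and the Pax5(-/-) values. Ifitm6 was at 10.1, 21.8 and 5.99 TPM (12.6 ± 8.18, SD, n = 3), the highest of the 3 groups. The order of the mean levels was Ifitm2, Ifitm3, Ifitm6 and Ifitm1, the last 2 of which overlapped. Their sum, 513 to 545 TPM, lay within the wild-type range.

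Ifitm6 was compared with the myeloid markers by library, among which the neutrophil genes S100a8 and S100a9 were picked after their values were seen. S100a8, which encodes a calcium-binding protein abundant in neutrophils, was at 2.26, 58.3 and 38.4 TPM in wild-type, 0 and 9.41 TPM in Pax5(-/-), and 167, 401 and 108 TPM in Meox2-Cre libraries. Ordered by S100a8 or by S100a9, its partner, the 8 libraries fell in the same order as by Ifitm6, except that wild-type replicates 2 and 3 changed places and that 2 libraries tied at 0 for Ifitm6. In the 6 libraries in which both were above 0, the ratio of Ifitm6 to S100a8 was 0.048 to 0.088. The summed level of the myeloid markers was 53.7 to 275 TPM in wild-type, 73.2 and 111 TPM in Pax5(-/-) and 468 to 1270 TPM in Meox2-Cre libraries. Wild-type replicate 1 was thus below both Pax5(-/-) libraries in this sum, unlike the other wild-type libraries. Most of the Meox2-Cre sum was S100a8 and S100a9, the genes picked above, so that it is not separate from them. S100a9 was at 239, 568 and 171 TPM there. In wild-type and Pax5(-/-) libraries 11 of the 12 markers were found, and not all of them followed Ifitm6. Mpo, the myeloperoxidase gene, was at 11.1, 34.5 and 19.0 TPM in wild-type and at 37.8 and 42.1 TPM in Pax5(-/-) libraries (log2 difference 1.02, adjusted p = 0.081). Prtn3, another granule protease gene, had a log2 difference of 0.28 (adjusted p = 0.55). In the limma test across all genes, 1 of the 10 tested was higher in Pax5(-/-) cells (Fcgr3, a low-affinity Fc receptor) and 2 were lower, beside 15.6% of all genes tested that were higher and 21.5% that were lower. The lower genes were Elane, neutrophil elastase, by a log2 difference of -3.10 (adjusted p = 0.016), and Itgam, an integrin of myeloid cells, by -1.22 (adjusted p = 0.022). Elane lost its call without wild-type replicate 2 or Pax5(-/-) replicate 1, where the difference was -2.79 and -1.75, and was -4.45 without Pax5(-/-) replicate 2. Itgam kept its call without wild-type replicate 1 and lost it without any 1 of the other 4 libraries, and Fcgr3 lost it without Pax5(-/-) replicate 2. Whether myeloid cells in the sorted samples gave the Ifitm6 reads was not tested. In bulk RNA, fewer cells of a type and less RNA per cell cannot be told apart.

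**Figure D3:**
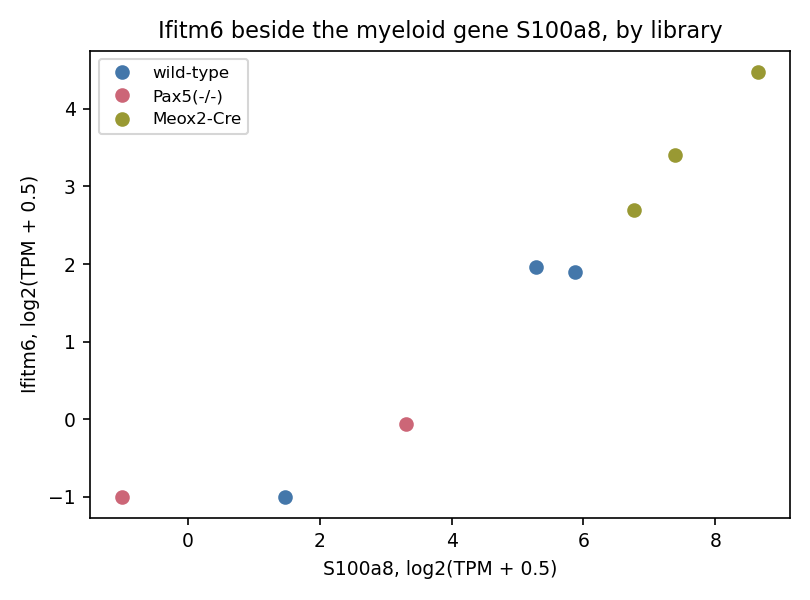
Ifitm6 against S100a8, both as log2(TPM + 0.5), with 1 point per library, coloured by group. The Meox2-Cre libraries were normalised in separate tables. The libraries with the highest S100a8 values, 108 to 401 TPM in Meox2-Cre cells, hold the highest Ifitm6 values, 5.99 to 21.8 TPM.

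The genes whose pattern over the 5 wild-type and Pax5(-/-) libraries was most like that of each member were found by the root mean square difference of the centred log2 values. For Ifitm1 these were Kcnk12, a potassium channel gene, at 0.31, 5830411N06Rik at 0.33 and 9030619P08Rik at 0.34. Kcnk12 was at 0.45 to 1.15 TPM in wild-type and at 37.0 and 54.8 TPM in Pax5(-/-) libraries. The gene 5830411N06Rik, at most at 0.031 TPM in wild-type and at 22.6 and 27.8 TPM in Pax5(-/-) libraries, also lies on chromosome 7, at 147433200 to 147485690 in mm9. For Ifitm2 they were Hhat, Sh3bp1 and Fam26f, at 0.036 to 0.049. Sh3bp1, at 72.6 to 106 TPM in wild-type and at 171 and 169 TPM in Pax5(-/-) libraries, was the most abundant of them. For Ifitm3 they were Sytl1, Klf3 and Gbp6, at 0.091 to 0.106, and Gbp6, an interferon-inducible GTPase, was at 0.088 to 0.46 and at 1.65 and 2.07 TPM. For Ifitm6 they were Chil3, Retnlg and the microRNA gene Mir1291, at 0.32 to 0.36. Chil3 and Retnlg encode secreted proteins of myeloid cells. Retnlg was at 0.42 to 5.11 TPM in wild-type, at 0.24 and 1.48 TPM in Pax5(-/-) and at 17.0 to 63.1 TPM in Meox2-Cre libraries.

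Other genes of the dispanin family, to which the Ifitm genes belong, were examined next. Of 12066 genes tested with limma, 1885 (15.6%) were higher and 2596 (21.5%) lower in Pax5(-/-) cells at an adjusted p below 0.05. With the added demand of a more than 3-fold difference and a mean above 5 TPM in 1 genotype, 327 (2.71%) were called higher and 380 (3.15%) lower. The median log2 difference of all genes tested was -0.12. Of 10 other family members, 9 were in the tables and 4 were tested, of which 1 was higher and 3 did not pass. Syndig1l, a relative of a synapse differentiation factor, was at 3.19, 3.48 and 0.98 TPM in wild-type and at 25.0 and 34.8 TPM in Pax5(-/-) libraries. Its log2 difference was 3.43 ± 0.43 (SE, adjusted p = 9.4e-04). Tmem91 was at 74.6 to 116 TPM in wild-type and at 86.7 and 79.4 TPM in Pax5(-/-) libraries, within the same range. Ifitm5, which is known from bone-forming cells and lies beside Ifitm2, was at 0.54 to 1.75 TPM in these 5 libraries. Ifitm7 and Ifitm10 were below 0.6 TPM in every library.

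The neighbours of the Ifitm genes on chromosome 7 were compared to describe how far along the locus the differences reached. Of 17 listed neighbours, 12 were tested, of which 3 were higher, 3 were lower and 6 did not pass, with a median log2 difference of -0.043. The 3 higher genes, 25.0% of those tested, stood beside 15.6% of all genes. B4galnt4, a glycosyltransferase gene 94.1 kb from the start site of Ifitm1, was at 0.04 to 0.24 TPM in wild-type and at 4.63 and 3.75 TPM in Pax5(-/-) libraries (log2 difference 2.84, adjusted p = 3.7e-04). Sirt3, a mitochondrial deacetylase gene, was at 31.0 to 47.9 TPM in wild-type and at 95.7 and 93.6 TPM in Pax5(-/-) libraries (1.18, adjusted p = 0.0033). Lrrc56 was higher by 1.31 (adjusted p = 0.0034). Pkp3, which encodes the desmosome protein plakophilin 3 and starts 111 kb from Ifitm1, was lower, at 14.6 to 18.7 TPM in wild-type and at 6.27 and 6.86 TPM in Pax5(-/-) libraries (-1.25, adjusted p = 0.0016). The neighbour on the other side of Ifitm5, Pgghg, had a log2 difference of -0.17 (adjusted p = 0.40). The Sirt3 and Lrrc56 entries carry a mark in the authors' tables that may denote overlap with another gene, so that their values are uncertain. The same mark is on the entries of Ifitm7, Cd81, Apobec3, Lck and Mir1291 in the wild-type and Pax5(-/-) tables, and the same limit holds for them. When either Pax5(-/-) library was left out, Sirt3 and Lrrc56 lost their calls, and 1 neighbour was higher and 1 lower. Under rescaling by median ratios, which moves the median of all genes from -0.12 to -0.0031, 1 neighbour was lower.

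**Figure D4:**
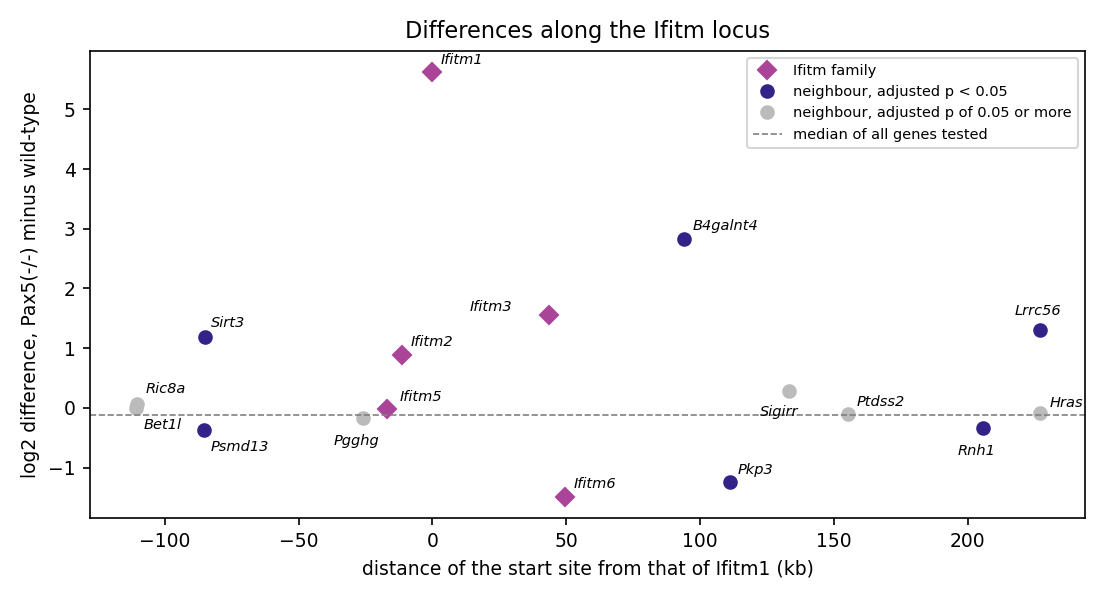
Log2 difference between Pax5(-/-) and wild-type cells, on the scale of log2(TPM + 0.5), against the distance of each start site from that of Ifitm1 in kb, for the Ifitm genes and the tested neighbours. Purple diamonds are Ifitm genes, dark points neighbours with an adjusted p below 0.05 and grey points the other neighbours. Ifitm1, at 5.63, stands above every other gene plotted, and Pgghg, Ifitm5, Ptdss2 and Hras lie within 0.2 of 0.

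Genes of interferon reception and signalling stand upstream of Ifitm expression. Of 15 tested, 5 were higher (33.3%, beside 15.6% of all genes), 1 was lower and 9 did not pass, and the median log2 difference was 0.23. Ifngr1, the ligand-binding chain of the type II interferon receptor, was at 80.5 to 89.8 TPM in wild-type and at 242 and 257 TPM in Pax5(-/-) libraries (1.55, adjusted p = 4.2e-05). Irf7, a transcription factor induced by and inducing type I interferon, was at 8.11, 23.5 and 18.2 TPM in wild-type and at 61.4 and 88.4 TPM in Pax5(-/-) libraries (2.24, adjusted p = 0.0046). Socs1, an inhibitor of the JAK kinases below these receptors, was higher by 1.59 (adjusted p = 0.0040). The chains of the type I receptor, Ifnar1 and Ifnar2, were the other genes that rose, by 0.76 (adjusted p = 0.0045) and 0.70 (adjusted p = 0.011). Irf8, a factor of B cells and of myeloid and dendritic cells, fell from 231 to 241 TPM in wild-type to 40.4 and 78.4 TPM in Pax5(-/-) libraries (-2.06, adjusted p = 6.9e-04). Without Pax5(-/-) replicate 1 or 2, 2 or 1 of the 15 were higher, and without wild-type replicate 1, 4 were lower. Ifngr1 and Irf8 passed without each library in turn. Irf7 lost its call without Pax5(-/-) replicate 2, and Socs1, Ifnar1 and Ifnar2 lost theirs without either Pax5(-/-) library.

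Interferon-induced antiviral genes did not move as 1 group. Of 33 listed genes, 29 were tested, of which 6 were higher, 1 was lower and 22 did not pass, with a median log2 difference of 0.22. The 6 higher genes were 20.7% of those tested, near the 15.6% of all genes. Rtp4, a chaperone of receptors that binds viral RNA, was at 8.05, 19.9 and 14.9 TPM in wild-type and at 53.7 and 59.1 TPM in Pax5(-/-) libraries (2.03, adjusted p = 0.0030). Oasl1, a 2'-5' oligoadenylate synthetase-like gene, was at 7.69 to 15.8 TPM and at 32.6 and 43.3 TPM (1.73, adjusted p = 0.0033). Dhx58 and Rigi, members of the RIG-I family of RNA sensors, rose by 1.14 (adjusted p = 0.0083) and 0.91 (adjusted p = 0.023). Ifit1 (1.25, adjusted p = 0.043) and Samhd1 (0.63, adjusted p = 0.016) were the other genes that rose. Apobec3, a cytidine deaminase that acts on retroviruses, fell from 476 to 531 TPM in wild-type to 356 and 379 TPM in Pax5(-/-) libraries (-0.43, adjusted p = 0.013). Isg15, Bst2, Mx2, Oas1a and Rsad2 were among the genes that did not pass, with log2 differences from -1.10 for Rsad2 to 0.89 for Isg15.

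The counts for these antiviral genes depended on the libraries. Without wild-type replicate 1, which had the lowest wild-type value for 26 of the 29, 6 were higher and 6 were lower. Without Pax5(-/-) replicate 1, 1 was higher, and without Pax5(-/-) replicate 2 the count was 0 in limma, with 3 higher at an unadjusted p below 0.05. Rtp4, Dhx58, Rigi, Samhd1 and Apobec3 lost their calls without either Pax5(-/-) library, Oasl1 without replicate 2, and Ifit1 without any 1 of 4 of the 5 libraries. Rescaling by median ratios gave 11 higher genes. The share of all genes that passed is given for the main fit only, so that these changes are not read as a trait of the list. The summed level of the 33 genes overlapped between the genotypes, at 974, 1179 and 1189 TPM in wild-type and 1104 and 1215 TPM in Pax5(-/-) libraries. It was 1410 to 1509 TPM in Meox2-Cre libraries. Apobec3, the lower gene, was the largest part of every sum, so that the sums say little about the other genes. Both Pax5(-/-) values lay above every wild-type value for 12 of the 29 tested genes, beside 26.1% of all genes tested. They lay below every wild-type value for 4 of the 29, beside 4510 of all 12066. In the plot of the lists, Ifitm1 lies beyond every gene of both interferon lists. Since the family was chosen for this difference of Ifitm1, nothing is read from that place.

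**Figure D5:**
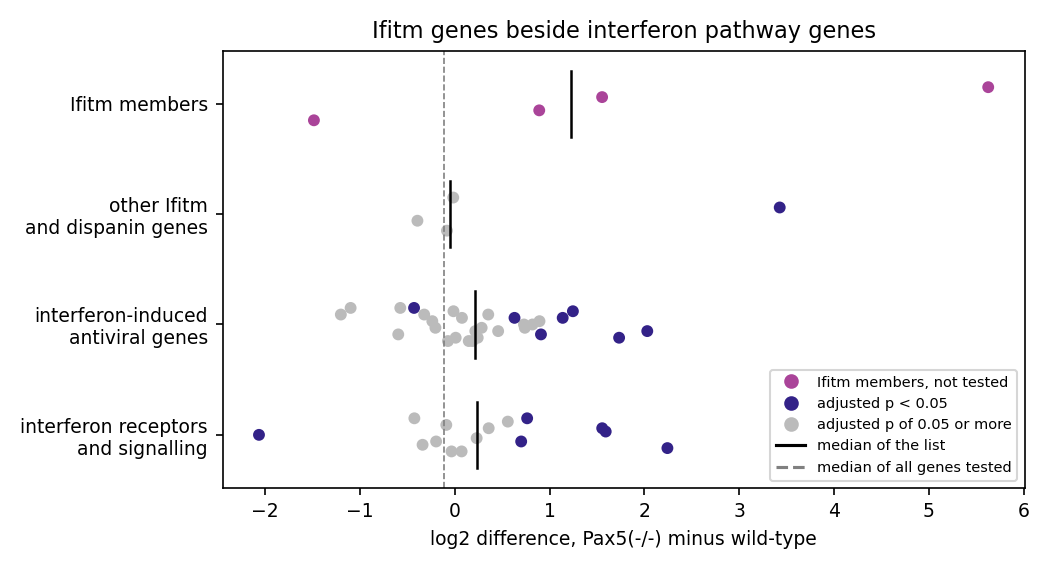
Log2 difference between Pax5(-/-) and wild-type cells, on the scale of log2(TPM + 0.5), with 1 point per tested gene, in 4 lists. Dark points have an adjusted p below 0.05, grey points do not, purple points are the Ifitm members, which were not tested, and black bars are list medians. Ifitm1 at 5.63 is to the right of Irf7 at 2.24 and Rtp4 at 2.03, the highest differences among the interferon genes.

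Of the genes whose products bind or modify IFITM proteins, 8 were tested, of which 0 were higher, 1 was lower and 7 did not pass. Of all genes tested, 15.6% were higher and 21.5% were lower. The lower gene of this list is not reported here. Cd81, which encodes the tetraspanin, was at 451, 463 and 458 TPM in wild-type and at 466 and 447 TPM in Pax5(-/-) libraries, and its log2 difference was -0.0015 ± 0.087 (SE, adjusted p = 0.99). Cr2, which encodes CD21, was at most at 0.17 TPM in every library. Nedd4, a ubiquitin ligase that marks IFITM3 for degradation, was at 0.26 (adjusted p = 0.074), and Zdhhc20, a palmitoyl transferase for IFITM3, at 0.19 (adjusted p = 0.40).

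Markers of other cell types also differed between the genotypes, beside the Ifitm genes, and their part in the Ifitm values was not tested. The counts below stand beside the 15.6% of all genes tested that were higher and the 21.5% that were lower. Of the 12 pro-B cell genes, 8 were lower and 4 did not pass, with a median log2 difference of -1.04. The largest were Cd79a, a chain of the B cell receptor (-3.00, adjusted p = 2.6e-05), and Blnk, an adaptor below it (-2.88, adjusted p = 8.3e-05). Of 6 tested markers of stem and multipotent progenitors, 3 were higher and 3 did not pass, and their summed level was 35.6 to 51.2 TPM in wild-type and 396 and 459 TPM in Pax5(-/-) libraries. In the Pax5(-/-) libraries most of that sum was Flt3, a cytokine receptor of early progenitors, at 11.1 to 18.1 TPM in wild-type and at 327 and 388 TPM in Pax5(-/-) libraries (4.55, adjusted p = 9.3e-06). Ly6a, which encodes Sca-1 and is itself known to be interferon-inducible, rose by 2.08 (adjusted p = 9.2e-04). Of 6 tested markers of plasmacytoid dendritic cells, 4 were higher and 1 was lower. Tlr7, an endosomal RNA sensor, rose by 2.92 (adjusted p = 4.3e-04), while Siglech, a defining marker, was at 0.11 to 1.12 TPM in wild-type and at 1.79 and 9.06 TPM in Pax5(-/-) libraries. The call of Siglech was lost without wild-type replicate 1 or 2 or Pax5(-/-) replicate 2, without which the difference was 1.17. The summed level of that list was 501 to 602 TPM in wild-type and 195 and 251 TPM in Pax5(-/-) libraries. Most of it was Spib, which B cells also express, at a mean of 534 and 150 TPM. Of 4 tested T cell markers, 3 were higher and 1 was lower, and their list summed to 107 to 109 TPM in wild-type and 262 and 266 TPM in Pax5(-/-) libraries. Most of that sum was Lck, a kinase of T cells, which rose by 1.58 (adjusted p = 1.8e-04). Lck was at 54.8 to 72.2 TPM in wild-type and at 196 and 198 TPM in Pax5(-/-) libraries. The lower gene was Cd5 (-1.38, adjusted p = 0.0066), and Cd3e was listed at 0 in both Pax5(-/-) libraries. Of 6 tested markers of natural killer and innate lymphoid cells, 3 were higher and 2 were lower, and the list summed to 13.3 to 27.5 TPM in wild-type and 50.1 and 59.2 TPM in Pax5(-/-) libraries. Id2, a factor of innate lymphoid cells, rose by 2.47 (adjusted p = 4.0e-04), Nkg7 by 2.31 (adjusted p = 0.0049) and Gzma by 2.27 (adjusted p = 0.0036). Most of the Pax5(-/-) sum was Id2 and Nkg7, whose means there were 26.2 and 20.3 TPM. Prf1 (-1.84, adjusted p = 0.014) and Klrb1c (-1.69, adjusted p = 0.035) were the lower genes, so that this list did not move in 1 direction. Id2 kept its call without each library in turn, while Nkg7, Gzma, Prf1 and the T cell marker Cd5 did not. The difference of Prf1 was -1.09 without Pax5(-/-) replicate 1.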

How the data were processed

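The authors sequenced poly(A) RNA of sorted cells. Per the study's methods, they aligned the wild-type and Pax5(-/-) reads to mm9 with TopHat 1.4.1a and the Meox2-Cre reads, as pairs, to mm10 with STAR 2.4.2a, counted them per gene with featureCounts 1.5.0 and deposited TPM values, which keep no read total. The 2 sets of tables were therefore never tested against each other. From the deposited TPM, genes whose mean exceeded 1 TPM in either genotype were tested as log2(TPM + 0.5) with limma 3.58.1 in R 4.3.3 (moderated two-sided test with a trend, Benjamini-Hochberg adjustment), after checking the script on simulated data. Immunoglobulin and T cell receptor genes (519 entries in the mm9 tables) were left out of calls. The members were not tested, since Ifitm1 chose the family, and an exact permutation test of 3 against 2 libraries cannot go below 0.1.

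Positions, transcripts and protein identity came from GENCODE in mm9, and promoters from RefSeq in GRCm38.p6. The members and the lists (12 lists, 148 genes: Ifitm members, other dispanins, locus neighbours, protein partners, interferon signalling, interferon-induced antiviral genes, and pro-B, myeloid, T cell, natural killer, plasmacytoid dendritic and stem cell genes) were chosen with earlier results of these data known. From each list up to 4 genes with an adjusted p below 0.05 and the largest difference were to be named, with Pax5, Cr2 and Cd81, the locus genes, and the 3 genes nearest in pattern to each member. Some listed genes are not reported here. Others named in the text were chosen after their values were seen. Alternatives were other pseudocounts, scalings and filters, and leaving out each library.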

Additional observations from a re-analysis of the deposited data

How the results depend on the processing

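The log2 differences of Ifitm1, Ifitm2 and Ifitm3 kept their direction under every alternative, at 5.44 to 5.90, 0.76 to 1.02 and 1.30 to 1.75. That of Ifitm6 ranged from -0.98 to -2.46 and was -3.28 as the log2 ratio of the mean TPM, which uses no pseudocount. The Meox2-Cre means of the 4 members moved by less than their SD. The numbers of genes called, 327 higher and 380 lower, were 630 and 753 at more than 2-fold. They were 373 and 343 under rescaling by median ratios and 358 and 347 under quantile normalization.

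Small counts in the lists moved more. The share of all genes that passed at an adjusted p below 0.05 is given for the main fit only. The list counts under the alternatives, here and above, thus have no such share beside them, and nothing is read from their changes. Rescaling by median ratios and quantile normalization each gave 11 higher antiviral genes and 1 lower neighbour, and quantile normalization gave 2 lower antiviral genes. With no filter on low values, limma gave 0 antiviral genes higher or lower (6 and 2 at an unadjusted p below 0.05), 1 signalling gene was higher and 1 neighbour was lower. A filter at 5 TPM gave 3 lower signalling genes. Without a trend in the spread, 2 antiviral genes and 1 neighbour were lower. The cause of these changes was not tested. Leaving out 1 library gave 0 to 6 higher and 0 to 6 lower antiviral genes, 1 to 6 higher and 1 to 4 lower signalling genes, and 1 to 3 higher and 1 to 3 lower neighbours. With 1 Pax5(-/-) library left, it was assumed to vary like the wild-type libraries. The difference of Cd81, near 0, changed sign to 0.11 under both scalings and was -0.031 to 0.028 without 1 library. For the named genes that passed, 454 of their values under an alternative kept the call and 74 lost it, and 19 of these 41 genes passed without each library in turn.

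No paired analysis was possible because no label links a wild-type library to a Pax5(-/-) library. The tables hold no read totals, so the counting error of low values such as those of Ifitm6 is unknown.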
